A study of Mus musculus with 8 samples.

Results

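The response of RAW 264.7 cells to *B. clausii* was compared directly with their response to *B. bifidum*. RAW 264.7 is a mouse macrophage-like line derived from BALB/c mice. Cells received *Bacillus clausii* or *Bifidobacterium bifidum* at a multiplicity of infection of 1 for 6 hours, and time-matched cells were left untreated. Each two-colour Agilent array held Cy5-labelled RNA of treated cells and Cy3-labelled RNA of untreated cells, so every value is a log2 ratio of treated over untreated cells. The comparison used the arrays that the labels assign to these 2 bacteria, 6 of 8 in all, with 3 replicates of each; the other 2 arrays, from cells given *Lactobacillus acidophilus*, entered only checks and alternative fits. By the position of the arrays on their slides, replicates 1 and 2 of both bacteria lay on slide 2 and replicate 3 of both on slide 1. The main contrast was therefore made within slide 2, as *B. clausii* minus *B. bifidum*, with 2 arrays per bacterium, and replicate 3 gave a separate difference of 1 array against 1. All groups share 1 cell line, so nothing here samples different animals. The strain designation of the bacteria, and whether they were alive when added, are not given in the labels used here. Dyes were never swapped, which cancels between the bacteria only where a dye effect was the same on every array. The series' design calls the replicates biological and does not say what separated them, so the p-values rest on the spread between arrays alone, and that spread may be technical. In RNA from a whole culture, fewer cells that express a gene and less of its RNA per cell cannot be told apart.

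Macrophages sense bacteria through Toll-like and NOD-like receptors at the cell surface, in endosomes and in the cytosol. Lipoproteins and cell wall fragments of Gram-positive bacteria such as these are read mainly by Tlr2, Nod1 and Nod2. Signalling from these receptors runs through NF-kB and MAP kinases to cytokine and chemokine genes, and through interferon regulatory factors to type I interferon and the genes it induces. Engulfed bacteria are carried to lysosomes, whose hydrolases and proton pump are under the control of the factors TFEB, TFE3 and MITF. Sterol regulatory element binding proteins switch on cholesterol synthesis, and liver X receptors switch on its export. Starvation for amino acids and stress in the endoplasmic reticulum activate the integrated stress response through ATF4. Both bacteria are sold as probiotics; *B. clausii* forms spores and *B. bifidum* is a resident of the infant gut.

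One array stood apart from the others in quality. The number of probes that stood well above background in either channel ran from 12543 to 26473. The lowest number belonged to *B. clausii* replicate 3, whose spot grid the scanner software had marked as not good and whose repeated spots varied by 72.5% in Cy5 and 67.4% in Cy3, against 14.5% to 21.5% on the other arrays compared here. Spots saturated at the scanner's ceiling numbered 84 to 131 per array on slide 2 and 0 on slide 1, and they were left out. Across 14543 genes, which are not independent replicates, the log2 ratios of replicates 1 and 2 correlated at r = 0.92 for *B. clausii* and 0.90 for *B. bifidum*. Arrays of different bacteria on slide 2 correlated at 0.47 to 0.51, and arrays of the same bacterium on different slides at −0.004 to 0.010. Of the macrophage markers 10 passed the filter on dim probes and 6 of them were lower in *B. clausii*, while among 29 tested markers of dendritic cells, neutrophils, lymphocytes, fibroblasts and epithelium 1 passed.

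On slide 2 the bacteria left different transcript profiles, which replicate 3 did not show. Cells given *B. clausii* had more RNA of sterol synthesis, stress response and immediate early genes than cells given *B. bifidum*. They had less RNA of many lysosomal, interferon-stimulated and macrophage genes, and of many genes listed as NRF2 targets or iron genes. Of 14543 genes tested, 4680 (32.2%) differed at an adjusted p under 0.05 (limma, Benjamini-Hochberg), 2372 of them (16.3% of all genes) higher and 2308 (15.9%) lower in *B. clausii*. Most differences were modest, with a median size of 0.42 on the log2 scale. Only 223 genes (1.53%) differed by more than 1, that is over 2-fold, 94 of them (0.646%) higher and 129 (0.887%) lower. For 66.0% of all genes the ratios of the 2 bacteria did not overlap on slide 2, so non-overlap by itself says little. The split differed between sources of the signal: the scanner's processed signals gave 348 higher and 642 lower genes and the authors' deposited table gave 356 and 650. Limma called 0 genes with median centring in place of loess (758 at an unadjusted p under 0.05) and 0 from Cy5 alone (2650), and the number fell to 2886 without *B. bifidum* replicate 1 and to 2712 without *B. bifidum* replicate 2.

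**Figure D1:**
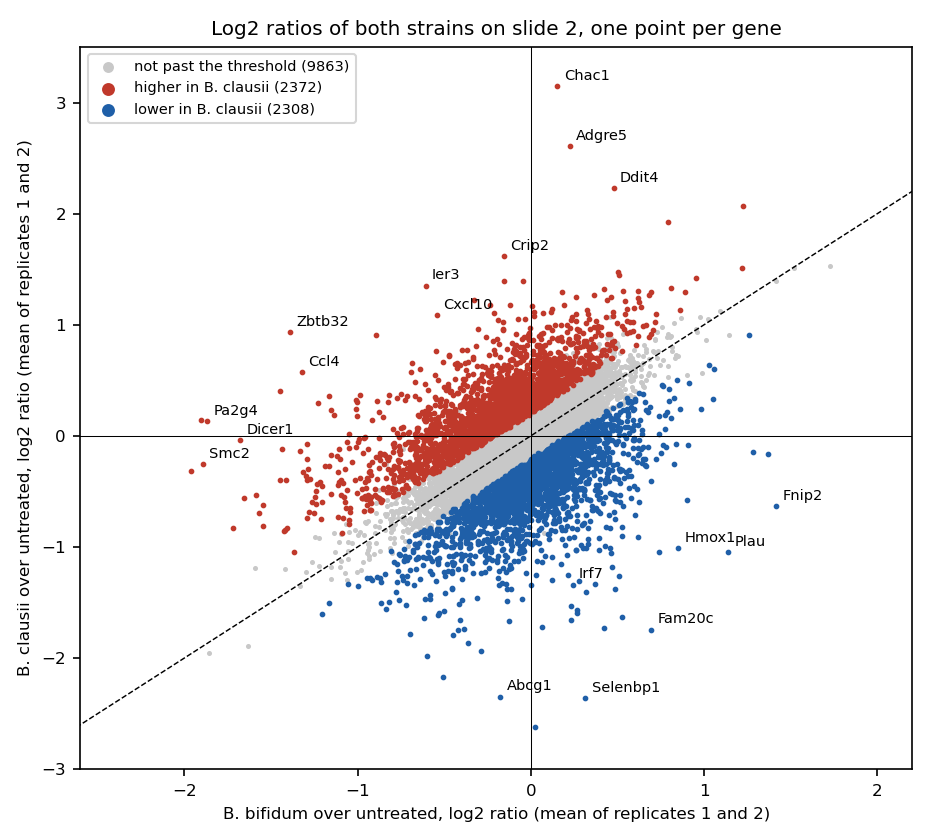
Mean log2 ratio over untreated cells on slide 2 for *B. bifidum* (x axis) and *B. clausii* (y axis), 1 point per gene tested, with genes past the threshold coloured by direction (2372 higher and 2308 lower in *B. clausii*) and the dashed line marking equal ratios. Chac1 and Adgre5 stand apart at the top with ratios near 0 for *B. bifidum*, and Selenbp1 and Abcg1 at the bottom.

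The genes furthest above in *B. clausii* were led by Chac1, which breaks down glutathione and is a target of the integrated stress response. Chac1 had log2 ratios of 3.11 and 3.19 with *B. clausii* and 0.18 and 0.13 with *B. bifidum*, a difference of 3.00 ± 0.06 or 7.97-fold (SE, n = 2 arrays per bacterium, adjusted p = 0.00027). Only the *B. clausii* arrays were far from 0. Adgre5, the adhesion receptor CD97 of leukocytes, had log2 ratios of 2.63 and 2.59 with *B. clausii* and 0.17 and 0.28 with *B. bifidum* and differed by 2.38 ± 0.07 (adjusted p = 0.00027). It too was high with *B. clausii* alone. Zbtb32, a transcriptional repressor of lymphoid and myeloid cells, had 0.88 and 0.98 with *B. clausii* and −1.41 and −1.38 with *B. bifidum* (2.32 ± 0.06, adjusted p = 0.00027), so the bacteria moved it in opposite directions. Ier3, an early response gene linked to cell survival, did the same, at 1.37 and 1.33 with *B. clausii* and −0.56 and −0.65 with *B. bifidum* (1.96 ± 0.06). So did Ccl4, a chemokine that attracts monocytes and T cells, at 0.56 and 0.59 with *B. clausii* and −1.32 and −1.33 with *B. bifidum* (1.90 ± 0.06), and Stard4, a cytosolic sterol carrier, at 0.91 and 0.91 with *B. clausii* and −0.98 and −0.81 with *B. bifidum* (1.80 ± 0.08). The LIM domain gene Crip2 had 1.69 and 1.55 with *B. clausii* and −0.18 and −0.12 with *B. bifidum* (1.77 ± 0.07) and was high with *B. clausii* alone. The arrays of the 2 bacteria did not overlap for any of these genes.

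A second kind of gene was higher in *B. clausii* with a ratio far below 0 for *B. bifidum* and closer to 0 for *B. clausii*. Rnf20, a ubiquitin ligase for histone H2B, had 0.12 and 0.16 with *B. clausii* and −2.06 and −1.75 with *B. bifidum* (2.05 ± 0.11, adjusted p = 0.000741). Pa2g4, a regulator of growth and ribosome assembly, had 0.12 and 0.14 with *B. clausii* and −1.86 and −1.87 with *B. bifidum* (2.00 ± 0.06), and the bicarbonate transporter gene Slc4a7 had 0.41 and 0.39 with *B. clausii* and −1.51 and −1.38 with *B. bifidum* (1.85 ± 0.07). For each of these genes other probes gave much smaller differences: −0.02 for Rnf20, 0.10 for Pa2g4 and 0.34 for Slc4a7. More widely, 21 genes with several probes were higher by over 1 with a *B. clausii* mean under 0.5 and a *B. bifidum* mean under −0.5. A probe with a difference under 0.5 of the gene's own was found for 20 of these 21 genes (95.2%), against 30 of 36 (83.3%) of all genes higher by over 1 with several probes and 9 of 12 (75%) of those with a *B. clausii* mean over 0.5 and a *B. bifidum* mean over −0.5. Across all 1945 called genes with several probes, 1268 (65.2%) had such a probe and 661 (34.0%) had a probe of the opposite sign. All values given here therefore describe the brightest probe of a gene and not all its transcripts.

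The genes furthest below in *B. clausii* were led by the selenium-binding protein genes Selenbp1 and Selenbp2, near-identical copies whose probes can bind each other's RNA. Selenbp1 had log2 ratios of −2.36 and −2.36 with *B. clausii* and 0.23 and 0.40 with *B. bifidum*, a difference of −2.67 ± 0.08 or 6.38-fold (SE, n = 2 arrays per bacterium, adjusted p = 0.00027), and Selenbp2 differed by −2.65 ± 0.07. Both were low with *B. clausii*, and with *B. bifidum* Selenbp1 was slightly above untreated cells. Abcg1, which exports cholesterol from macrophages, had −2.38 and −2.32 with *B. clausii* and −0.17 and −0.18 with *B. bifidum* (−2.17 ± 0.06, adjusted p = 0.00027), again low with *B. clausii* alone. Several of the others moved in opposite directions. Fam20c, the kinase of secreted proteins, had −1.74 and −1.75 with *B. clausii* and 0.75 and 0.64 with *B. bifidum* (−2.44 ± 0.07). Plau, the protease urokinase, had −1.05 and −1.04 with *B. clausii* and 1.18 and 1.103 with *B. bifidum* (−2.18 ± 0.06), and its second probe gave −0.72. Fnip2, a partner of folliculin in nutrient sensing at the lysosome, had −0.61 and −0.66 with *B. clausii* and 1.40 and 1.43 with *B. bifidum* (−2.05 ± 0.06). Plin2, the coat protein of lipid droplets, had −1.73 and −1.73 with *B. clausii* and 0.30 and 0.54 with *B. bifidum* (−2.15 ± 0.09). Slc40a1, the iron exporter ferroportin, had −1.58 and −1.68 with *B. clausii* and 0.61 and 0.44 with *B. bifidum* (−2.15 ± 0.08). Tmem140 differed by −1.89 ± 0.07 and Gpnmb, a lysosomal glycoprotein of phagocytes, by −1.86 ± 0.06 (−0.60 by its second probe). In all 10 the *B. clausii* arrays lay below the *B. bifidum* arrays.

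**Figure D2:**
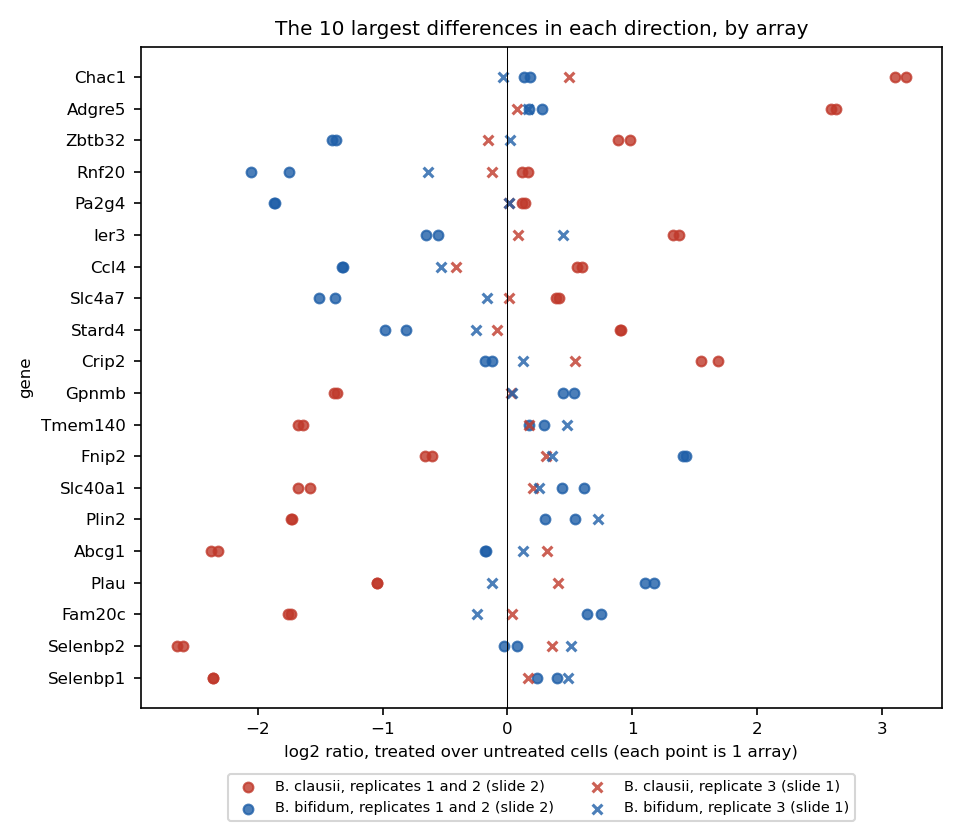
Log2 ratio on each array for the 10 genes with the largest positive and the 10 with the largest negative difference on slide 2; circles are replicates 1 and 2 and crosses replicate 3, red for *B. clausii* and blue for *B. bifidum*. Circles of 1 colour lie close together and apart from the other colour, while the crosses of both colours lie mostly near 0.

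Most of the 4680 differences involved a change from untreated cells with *B. clausii*. Against untreated cells 3864 genes (26.6%) rose and 4632 (31.9%) fell with *B. clausii*, and 2323 (16%) rose and 3698 (25.4%) fell with *B. bifidum* (limma on the same 4 arrays). Among the genes lower in *B. clausii*, 996 fell with *B. clausii* alone, 546 fell with both, 401 fell with *B. clausii* and rose with *B. bifidum*, and 274 rose with *B. bifidum* alone. Among those higher in *B. clausii*, 829 rose with *B. clausii* alone, 523 fell with *B. bifidum* alone, 435 rose with *B. clausii* and fell with *B. bifidum*, 294 fell with both and 268 rose with both. A call against untreated cells with 1 bacterium alone is not a test of the difference, which is the contrast itself. For most called genes the larger part of the difference lay in the channel of the treated cells. On separate channels the Cy5 part was larger than the Cy3 part for 4132 of 4680 genes (88.3%) and for 220 of the 223 that differed by over 1 (98.7%). The share among genes that did not pass was not taken. Lyz2 was among the exceptions, with −0.24 in Cy5 and 0.78 in Cy3. For those 223 genes the median sizes were 1.20 in Cy5 and 0.12 in Cy3. The Cy3 signals of untreated cells correlated at r = 0.970 to 0.996 between arrays of slide 2, across genes.

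Replicate 3 did not show these differences. Of 4616 called genes with a value on both replicate 3 arrays, 2315 (50.2%) had the same sign there, and the median size was 0.13 against 0.42 on slide 2. Of the 218 that differed by over 1, 116 (53.2%) had the same sign, and of the 46 beyond 1.5, 30 (65.2%). Where replicate 3 was well above background on both arrays the count was 1936 of 3813 (50.8%). Chac1 kept its direction at a smaller size, 0.52, from 0.49 with *B. clausii* and −0.03 with *B. bifidum*, whereas Adgre5 had 0.07 with *B. clausii* and 0.17 with *B. bifidum* and Plau 0.40 with *B. clausii* and −0.13 with *B. bifidum*. With the spread taken from the *L. acidophilus* arrays, a choice made after seeing the data, limma called 5 genes on replicate 3 (2344 at an unadjusted p under 0.05). They were Abca8a, Apob, Dll4, Pxt1 and Zfp866, and none of them passed on slide 2. A test of the difference between slides over all 8 arrays, also chosen after seeing the data, called 2935 of 14421 genes (20.4%). The slides and the replicates cannot be told apart, and the poor grid of *B. clausii* replicate 3 lies on the same side; its part in the result was not tested.

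**Figure D3:**
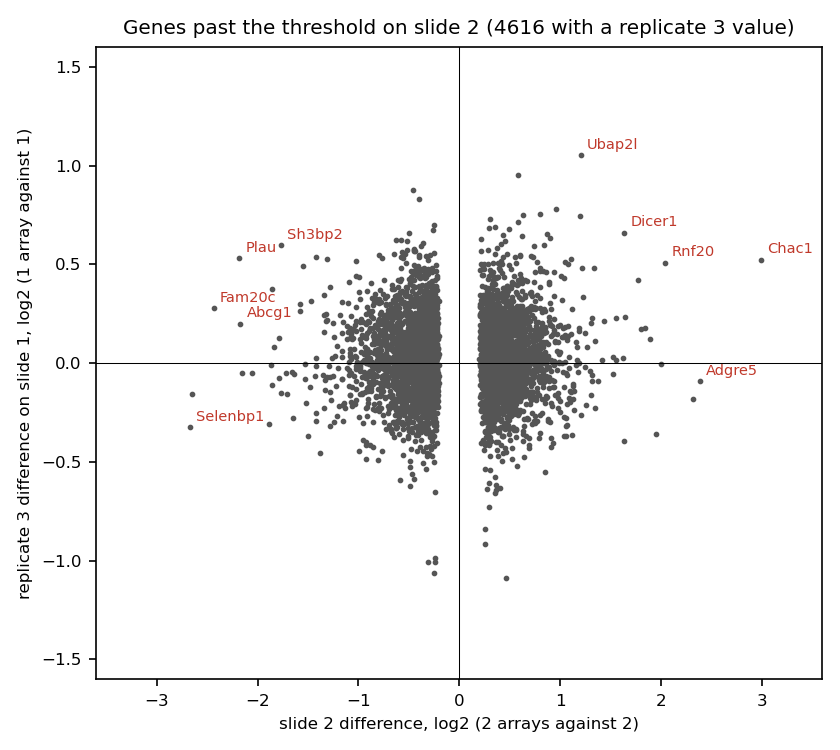
Difference of *B. clausii* minus *B. bifidum* on slide 2 (x axis, 2 arrays against 2) and on replicate 3 (y axis, 1 array against 1), both log2, for the 4616 genes past the threshold on slide 2. The gap around 0 on the x axis comes from the threshold, the y axis spans a smaller range, and points are spread evenly above and below 0.

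Taking all 6 arrays with the slide as a block left 6 genes, each of them also called on slide 2 (limma, 3272 at an unadjusted p under 0.05). With the replicate number as a block it called 0 (2417) over the 6 arrays and 4621 over the 4 of slide 2, where the fit without the block called 4680. Among the 6, Mitf, the lysosome and melanocyte factor named above, had −0.25 and −0.23 with *B. clausii* and −1.08 and −0.99 with *B. bifidum* on slide 2 and −0.02 with *B. clausii* and −0.78 with *B. bifidum* on replicate 3. The splicing gene U2surp had 0.04 and −0.10 with *B. clausii* and −1.01 and −0.97 with *B. bifidum*, then −0.06 with *B. clausii* and −0.84 with *B. bifidum* on replicate 3. Ubap2l, a stress granule protein gene, had 0.30 and 0.33 with *B. clausii* and −0.99 and −0.78 with *B. bifidum*, then −0.12 with *B. clausii* and −1.17 with *B. bifidum*. In these 3 genes the *B. bifidum* arrays were low on both slides and the *B. clausii* arrays lay closer to 0. For Ubap2l the mean over its 4 probes reversed the difference to −0.01, and U2surp had a probe at −0.07, while Mitf was measured by 1 probe. The other 3 had no replicate 3 value for 1 bacterium and so rest on slide 2: Ddit4, an inhibitor of mTOR signalling, at 2.21 and 2.25 with *B. clausii* and 0.48 and 0.48 with *B. bifidum* (1.75 ± 0.06), Plin2 as above, and the lysozyme gene Lyz1 at −1.25 and −1.26 with *B. clausii* and 0.21 and 0.22 with *B. bifidum* (−1.47 ± 0.06).

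Some called genes differed alike on both slides. Ranked by the smaller of the 2 differences, those higher in *B. clausii* were Ubap2l, U2surp, Mitf, Trip11, Dicer1, Cenpk, Baz1b, Chd1, Rhebl1 and Smarca5-ps, with replicate 3 differences of 0.60 to 1.05. Trip11, a Golgi tether, had 1.20 ± 0.14 on slide 2 and 0.75 on replicate 3, and Dicer1, which cuts microRNA precursors, had 1.64 ± 0.11 and 0.66. Baz1b and Chd1, both chromatin remodellers, had 0.91 ± 0.08 and 0.63, and 0.63 ± 0.13 and 0.75. In most of these genes a low ratio with *B. bifidum* made the difference, on replicate 3 as well; the exception was Cenpk, a kinetochore gene, at 1.05 and 0.91 with *B. clausii* and 0.17 and 0.04 with *B. bifidum*. Probes disagreed for Trip11, Dicer1, Baz1b and Chd1, whose lowest probes gave −0.07, −0.01, 0.04 and −0.26. Smarca5-ps is a pseudogene, so its probe may read its parent gene.

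Genes lower in *B. clausii* on both slides were Rabgef1, Prkar1a, Abca1, Cdt1, Iba57, Tmem154, Hlcs, Birc6, Treml1 and Trim24, with replicate 3 differences of −0.62 to −0.46. Treml1, a receptor of the TREM family, had −2.04 and −1.93 with *B. clausii* and −0.55 and −0.65 with *B. bifidum* (−1.38 ± 0.07) on slide 2 and 0.03 with *B. clausii* and 0.49 with *B. bifidum* on replicate 3. Cdt1, which licenses DNA for replication, had −0.69 and −0.64 with *B. clausii* and 0.12 and 0.16 with *B. bifidum* (−0.80 ± 0.06) and 0.02 with *B. clausii* and 0.51 with *B. bifidum*. Rabgef1, an exchange factor for early endosomes, had −0.59 ± 0.07 and −0.59, and Prkar1a, a regulatory subunit of protein kinase A, −0.49 ± 0.08 and −0.53. Abca1, the partner of Abcg1 in cholesterol export, had −0.60 and −0.30 with *B. clausii* and −0.09 and 0.17 with *B. bifidum*; the difference of the ratios was −0.49 ± 0.13, or 1.4-fold (adjusted p = 0.0433). Abca1 fell short of the threshold in 14 of 21 alternative settings. Its Cy5 signal was not well above background on either *B. clausii* array and was at least 1.7-fold lower there. This bound is on the Cy5 signal alone and not on the ratio, since Cy3 was lower too. The Cy5 signal of Tmem154 was likewise at least 1.31-fold lower (adjusted p = 0.0173 for the ratio). Such bounds set the mean Cy5 signal with *B. bifidum* against the higher of the dimmest level well above background and the probe's own signal. Because these 20 genes were picked for a shared sign on both slides, that sign adds no support.

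Among genes that sense bacteria, cells given *B. clausii* had less RNA of several receptors. Of 19 members tested, 1 was higher in *B. clausii*, 10 were lower and 8 did not pass. The median difference was −0.31, against 0.02 over all genes tested, and −0.01 on replicate 3. For this and every later list, the shares over all genes tested were 16.3% higher and 15.9% lower. Tlr2, the receptor for bacterial lipoproteins, had −0.95 and −0.93 with *B. clausii* and −0.41 and −0.33 with *B. bifidum* (−0.57 ± 0.06, adjusted p = 0.00252), lower than untreated cells with both bacteria and lowest with *B. clausii*. Nod1, which binds a cell wall peptide, had −0.63 ± 0.07, and Ly96, the co-receptor of Tlr4 known as MD-2, had −0.59 and −0.71 with *B. clausii* and 0.18 and 0.11 with *B. bifidum* (−0.79 ± 0.07). Tlr4, the receptor for lipopolysaccharide, had −0.38 ± 0.06, and Cd14, which delivers ligands to it, had −0.03 ± 0.07 and did not pass (adjusted p = 0.815). The kinase gene Irak2, which relays Toll-like receptor signals, had −0.18 and −0.10 with *B. clausii* and 1.34 and 1.22 with *B. bifidum* (−1.42 ± 0.07), high with *B. bifidum* alone. Irak3, an inhibitor of the same pathway, had −0.71 ± 0.09, with another of its probes at 0.13. Nod2, named after its value was seen, was the member higher in *B. clausii*, at 0.51 ± 0.08.

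The NF-kB list was divided between the bacteria. Of 17 members tested, 6 were higher in *B. clausii*, 6 were lower and 5 did not pass (median 0.06, and −0.09 with the processed signals). Higher in *B. clausii* were the feedback deubiquitinase gene Tnfaip3, also called A20, at 0.95 and 0.90 with *B. clausii* and 0.19 and −0.04 with *B. bifidum* (0.86 ± 0.09, adjusted p = 0.00243), and the adaptor gene Traf1, with 0.82 ± 0.06. Lower were Tnfaip2, at −1.29 and −1.32 with *B. clausii* and 0.09 and 0.16 with *B. bifidum* (−1.42 ± 0.06), and the NF-kB subunit gene Relb (−0.54 ± 0.06). Proinflammatory cytokines and their enzymes were divided as well. Of 19 tested, 3 were higher, 4 were lower and 12 did not pass (median 0.01, and −0.06 from Cy5 alone). Over all genes tested 16.3% were higher and 15.9% lower, so calls in this list were about as frequent as elsewhere. Ptgs2, the inducible enzyme of prostaglandin synthesis, had 0.80 and 0.77 with *B. clausii* and −0.14 and −0.14 with *B. bifidum* (0.92 ± 0.06, adjusted p = 0.000861), high with *B. clausii* alone. Acod1, which makes itaconate in activated macrophages, had −0.99 and −1.002 with *B. clausii* and −0.02 and −0.10 with *B. bifidum* (−0.93 ± 0.06), low with *B. clausii* alone. Tnf was close to untreated cells with *B. clausii* and lower with *B. bifidum*, at −0.01 and −0.01 with *B. clausii* and −0.23 and −0.22 with *B. bifidum* (0.22 ± 0.06, adjusted p = 0.0355). This call fell short of the threshold in 15 of 22 alternative settings. Csf3 had 0.29 ± 0.08 and the prostaglandin E synthase gene Ptges −0.32 ± 0.07, and they fell short in 12 of 21 and 13 of 22 settings.

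Several inflammatory and anti-inflammatory genes of macrophages did not pass on slide 2. Il10, which encodes the main anti-inflammatory cytokine, had a difference of 0.02 ± 0.06 (adjusted p = 0.855), and Nos2, the inducible nitric oxide synthase, one of 0.00 ± 0.06 (adjusted p = 0.962). Il6 had 0.15 ± 0.06 (adjusted p = 0.127) and Il1b −0.07 ± 0.06 (adjusted p = 0.429); both are secreted mediators of inflammation, and their Cy5 signal was well above background on only some of the 4 arrays. Arg1, the arginase of alternatively activated macrophages, had 0.15 ± 0.11 (adjusted p = 0.377), and its Cy5 signal was not well above background on any of the 4 arrays.

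Chemokines differed in both directions. Of 14 members tested, 5 were higher in *B. clausii*, 7 were lower and 2 did not pass (median −0.25, and 0.04 without the filter on dim probes). The members most above in *B. clausii* were Ccl4, described above, Cxcl10 and Cxcl2. Cxcl10, which recruits activated T cells, had 1.08 and 1.09 with *B. clausii* and −0.59 and −0.49 with *B. bifidum* (1.63 ± 0.06, 3.09-fold, adjusted p = 0.000467), up with *B. clausii* and down with *B. bifidum*. Cxcl2, which recruits neutrophils, had 1.01 and 1.09 with *B. clausii* and −0.19 and 0.04 with *B. bifidum* (1.13 ± 0.10, adjusted p = 0.00147). Ccl2, the main attractant of monocytes, went the other way and was higher with *B. bifidum*, at 0.15 and 0.13 with *B. clausii* and 0.62 and 0.63 with *B. bifidum* (−0.49 ± 0.06, adjusted p = 0.00311). Ccl5, an attractant of T cells, was lower than untreated cells with both, at −0.94 and −0.99 with *B. clausii* and −0.39 and −0.36 with *B. bifidum* (−0.59 ± 0.06). On replicate 3 Cxcl10 differed by 0.03 and Ccl2 by −0.30.

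Interferon-stimulated genes, which carry out antiviral defence, were lower in *B. clausii*. Of 42 members tested, 2 were higher in *B. clausii*, 29 were lower and 11 did not pass, a share of 69% lower against 15.9% of all genes. The median difference was −0.50 on slide 2 and 0.08 on replicate 3. Against untreated cells the median was −0.70 with *B. clausii*, where 37 members fell, and −0.16 with *B. bifidum*, where 19 fell. Isg20, an exonuclease of viral RNA, had −1.56 and −1.59 with *B. clausii* and 0.19 and 0.34 with *B. bifidum* (−1.84 ± 0.07, adjusted p = 0.000467). The oligoadenylate synthetase genes Oasl2 and Oas2 had −1.46 and −1.21 with *B. clausii* and 0.41 and 0.32 with *B. bifidum* (−1.71 ± 0.10) and −1.78 and −1.71 with *B. clausii* and −0.41 and −0.44 with *B. bifidum* (−1.32 ± 0.06), with another probe of Oas2 at −0.31. Ifi27l2a, a mitochondrial interferon response gene, had −1.56 and −1.48 with *B. clausii* and −0.47 and −0.36 with *B. bifidum* (−1.10 ± 0.07). In each of these 4 genes the *B. clausii* arrays were well below 0 and below both *B. bifidum* arrays. The 2 members higher in *B. clausii*, named after their values were seen, were Ddx58, the RNA sensor RIG-I, at 0.89 ± 0.13, and Trim30a, at 0.32 ± 0.07; both were below 0 with both bacteria.

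The transcription factors upstream of these genes did not move as a group. Of 13 members tested, 3 were higher in *B. clausii*, 3 were lower and 7 did not pass (median 0.09, and −0.01 from the scanner's processed signals). Irf7, the factor that amplifies type I interferon, had −1.35 and −1.33 with *B. clausii* and 0.24 and 0.25 with *B. bifidum* (−1.58 ± 0.06, adjusted p = 0.000447). Irf1 went the other way at 0.63 ± 0.07, with another probe at 0.01, as did Stat6, the factor of interleukin-4 signalling, at 0.37 ± 0.06, with another probe at −0.10.

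The promoters of 3 interferon-stimulated genes that were lower in *B. clausii* show the motif that interferon-activated factors read. Sequences are from RefSeq (assembly GRCm38.p6) and run 5′ to 3′ on the strand of the gene, over 120 bases before its start. Capitals mark the core of the interferon-stimulated response element, GAAA followed by any 2 bases and a second GAAA, on either strand, overlapping matches included. They are Isg15 chr4:156200819-156200938, minus strand; Igtp chr11:58199436-58199555, plus strand; and Rsad2 chr12:26456453-26456572, minus strand.
Isg15: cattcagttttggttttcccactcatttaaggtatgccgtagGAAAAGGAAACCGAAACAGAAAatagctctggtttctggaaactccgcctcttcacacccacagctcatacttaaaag
Igtp: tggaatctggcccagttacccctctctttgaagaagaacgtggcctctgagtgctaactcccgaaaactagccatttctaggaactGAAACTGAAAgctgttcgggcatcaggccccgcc
Rsad2: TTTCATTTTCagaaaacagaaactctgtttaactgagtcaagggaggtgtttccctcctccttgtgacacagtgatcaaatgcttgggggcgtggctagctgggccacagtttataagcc
Isg15, a ubiquitin-like modifier, had −1.25 and −1.27 with *B. clausii* and −0.53 and −0.46 with *B. bifidum* (−0.76 ± 0.06). The GTPase gene Igtp had −0.72 ± 0.06 and Rsad2, the antiviral enzyme viperin, −0.75 ± 0.06. Of the 42 members tested, 32 had a promoter in the table, and 15 of these (46.9%) held the motif in the 250 bases before the start. Among all 27025 genes with a promoter in the table the share was 3.46%, and among the 11643 tested genes with a promoter 3.25%. Here and below a gene counted if any of its promoters held the motif. The members that hold the motif were not alike in direction. Trim30a, which holds it, was higher in *B. clausii* (0.32), and Gbp2, Gbp5, Gbp7 and Irgm2 did not pass. A match describes the letters and shows no binding in these cells.

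Genes of class I antigen presentation were lower in *B. clausii*. Of 17 members tested, 0 were higher in *B. clausii*, 9 were lower and 8 did not pass (median −0.32, replicate 3 0.05). H2-D1, a classical class I heavy chain, had −0.48 and −0.48 with *B. clausii* and 0.57 and 0.65 with *B. bifidum* (−1.09 ± 0.06, adjusted p = 0.000782), and Tapbp, which loads peptides, had −0.30 and −0.44 with *B. clausii* and 0.43 and 0.45 with *B. bifidum* (−0.81 ± 0.07). H2-T23 and H2-Q4 had −0.99 ± 0.07 and −0.85 ± 0.06. All 4 were below untreated cells with *B. clausii* and above them with *B. bifidum*; the H2 genes are close copies whose probes may cross-react. In the class II pathway 2 of 10 members were higher, 3 were lower and 5 did not pass, against 16.3% higher and 15.9% lower of all genes. Cd74, the invariant chain, had −1.24 and −1.23 with *B. clausii* and −0.33 and −0.34 with *B. bifidum* (−0.90 ± 0.06), and H2-Oa −0.37 ± 0.10. Rfxank and Rfxap, subunits of the factor that drives class II genes, had 0.74 ± 0.08 and 0.36 ± 0.06. Another Rfxap probe gave −0.10. Rfxap fell short of the threshold in 11 of 21 alternative settings and H2-Oa in 13 of 22.

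Lysosomal genes formed the list with the most members lower in *B. clausii*. Of 48 members tested, 1 was higher in *B. clausii*, 36 were lower and 11 did not pass, so that 75% were lower against 15.9% of all genes. The median difference was −0.54 on slide 2 and 0.00 on replicate 3. Against untreated cells 42 members fell and 2 rose with *B. clausii*, and 14 fell and 16 rose with *B. bifidum*. Psap, the precursor of the saposins that help break down sphingolipids, had −1.64 and −1.55 with *B. clausii* and 0.25 and 0.29 with *B. bifidum* (−1.86 ± 0.06, adjusted p = 0.00041). Ctsd, the main aspartic protease of the lysosome, had −1.15 and −1.21 with *B. clausii* and 0.37 and 0.56 with *B. bifidum* (−1.64 ± 0.08), and the acid phosphatase gene Acp5 had −0.59 and −0.67 with *B. clausii* and 0.57 and 0.49 with *B. bifidum* (−1.16 ± 0.07). These 3 and Gpnmb, described above, fell with *B. clausii* and rose with *B. bifidum*. Ctsc, which activates serine proteases of leukocytes, was the member higher in *B. clausii*, named after its value was seen, at 0.49 and 0.48 with *B. clausii* and −0.61 and −0.74 with *B. bifidum* (1.16 ± 0.07).

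Subunits of the vacuolar proton pump, which acidifies the lysosome, were lower in *B. clausii* too. Of 16 members tested, 2 were higher in *B. clausii*, 13 were lower and 1 did not pass (median −0.61, replicate 3 0.17). The catalytic subunit gene Atp6v1a had −0.99 and −1.10 with *B. clausii* and 0.05 and −0.15 with *B. bifidum* (−0.998 ± 0.09, adjusted p = 0.0017). Atp6v1e1 had −0.91 ± 0.07, Atp6v0a1 −0.88 ± 0.13 and Atp6v1c1 −0.79 ± 0.06, with another Atp6v0a1 probe at −0.26. Higher were Atp6ap2 (0.40 ± 0.06) and Atp6v0a2 (0.34 ± 0.06), named after their values were seen. Of 26 autophagy genes tested, 1 was higher, 12 were lower and 13 did not pass (median −0.24). The cargo receptor gene Nbr1 had −0.91 and −0.92 with *B. clausii* and −0.03 and −0.07 with *B. bifidum* (−0.86 ± 0.06), and the ubiquitin-like genes Gabarapl1, Map1lc3a and Atg12, which build the autophagosome membrane, had −0.83 ± 0.06, −0.70 ± 0.11 and −0.67 ± 0.06, with another Atg12 probe at 0.33. Rb1cc1, a part of the initiating kinase complex, was the higher member at 0.30 ± 0.06, with another probe at −0.12.

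The promoters of 3 hydrolase genes that were lower in *B. clausii* show the E-box that TFEB and its relatives read. They are from RefSeq (GRCm38.p6), 120 bases before the start on the strand of the gene, with capitals on CACGTG, the core of the CLEAR element, which reads the same on both strands. They are Ctsd chr7:142387828-142387947, minus strand; Naglu chr11:101069974-101070093, plus strand; and Ctsa chr2:164833653-164833772, plus strand.
Ctsd: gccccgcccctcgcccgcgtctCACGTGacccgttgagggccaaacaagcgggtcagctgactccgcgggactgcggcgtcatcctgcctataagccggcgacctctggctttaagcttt
Naglu: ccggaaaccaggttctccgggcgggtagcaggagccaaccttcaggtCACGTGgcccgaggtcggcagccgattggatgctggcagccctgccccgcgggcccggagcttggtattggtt
Ctsa: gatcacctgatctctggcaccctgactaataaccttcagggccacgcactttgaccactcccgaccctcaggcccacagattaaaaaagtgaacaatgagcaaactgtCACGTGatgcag
Naglu, which degrades heparan sulfate, had −0.53 and −0.67 with *B. clausii* and 0.59 and 0.44 with *B. bifidum* (−1.11 ± 0.09), and Ctsa, a protective carboxypeptidase, had −0.73 and −0.81 with *B. clausii* and 0.07 and 0.25 with *B. bifidum* (−0.93 ± 0.08). The Ctsa promoter shown lies before an alternative start, and the Ctsa promoter listed ahead of it did not hold the motif. With 40 of the 48 members matched to a promoter, 14 (35%) held CACGTG in the 250 bases before a start. The share was 6.86% of all genes with a promoter in the table and 9.17% of the tested ones. Arsa, Cln3 and Ctsf, which hold it, did not pass, and the other members that hold it were lower in *B. clausii*. Mitf, a factor that reads this motif, had less RNA with *B. bifidum* than with *B. clausii* (0.80 ± 0.06).

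Cholesterol and fatty acid synthesis was the list with the highest median in *B. clausii*. Of 34 members tested, 24 were higher in *B. clausii*, 1 was lower and 9 did not pass, a share of 70.6% higher against 16.3% of all genes. The median difference was 0.52 on slide 2 and 0.08 on replicate 3. Against untreated cells 24 members rose with *B. clausii* and 3 with *B. bifidum*, while 6 and 17 fell. Besides Stard4, the isomerase gene Idi1 had 1.28 and 1.17 with *B. clausii* and −0.29 and −0.36 with *B. bifidum* (1.55 ± 0.07, adjusted p = 0.000593), with another probe at 0.66. Msmo1, a sterol demethylase, had 1.41 and 1.38 with *B. clausii* and −0.03 and −0.06 with *B. bifidum* (1.44 ± 0.06), and Hmgcs1, which makes the substrate of the rate-limiting reductase, had 1.05 and 1.04 with *B. clausii* and 0.05 and −0.12 with *B. bifidum* (1.08 ± 0.08). Both were high with *B. clausii* and close to untreated cells with *B. bifidum*. Fads1, a fatty acid desaturase, was the member lower in *B. clausii*, at −0.23 ± 0.06, named after its value was seen. The sterol regulatory element TCACNCCAC, searched on both strands, was in the 250 bases before the start of 1 of 23 members with a promoter (4.35%) and of 1.32% of tested genes.

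Genes of cholesterol export and lipid storage went the other way. Of 19 members tested, 1 was higher in *B. clausii*, 10 were lower and 8 did not pass (median −0.34, replicate 3 0.03). Apart from Abcg1 and Plin2, Mylip, a ligase that removes the LDL receptor, had −1.31 and −1.14 with *B. clausii* and −0.34 and −0.19 with *B. bifidum* (−0.96 ± 0.09, adjusted p = 0.0018), and the lipid droplet gene Plin3 had −0.48 and −0.46 with *B. clausii* and 0.31 and 0.25 with *B. bifidum* (−0.75 ± 0.06). Plin3 fell with *B. clausii* and rose with *B. bifidum*, as Plin2 did. Dgat2, which makes triglycerides, was the higher member at 0.29 ± 0.06.

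Antioxidant and iron genes had the lowest median of the lists in *B. clausii*. Of 24 members tested, 1 was higher in *B. clausii*, 16 were lower and 7 did not pass (median −0.63 on slide 2 and −0.06 on replicate 3). With *B. clausii* 19 members fell and 3 rose against untreated cells, and with *B. bifidum* 4 fell and 12 rose. Hmox1, which breaks down heme, had −1.01 and −1.01 with *B. clausii* and 0.75 and 0.95 with *B. bifidum* (−1.86 ± 0.08, 3.63-fold, adjusted p = 0.000603). Gclm, a subunit of the enzyme that starts glutathione synthesis, had −0.93 and −1.06 with *B. clausii* and 0.50 and 0.36 with *B. bifidum* (−1.43 ± 0.08), and Osgin1, an oxidative stress gene, had −1.07 and −1.05 with *B. clausii* and 0.52 and 0.40 with *B. bifidum* (−1.52 ± 0.07). Each of these genes and Slc40a1, described above, fell with *B. clausii* and rose with *B. bifidum*. Tfrc, the receptor for iron uptake, was the member higher in *B. clausii*, at 1.00 and 0.97 with *B. clausii* and 0.40 and 0.33 with *B. bifidum* (0.62 ± 0.06), named after its value was seen. Nqo1, a listed NRF2 target also named after its value was seen, rose with both bacteria. It had 0.59 and 0.47 with *B. clausii* and 0.56 and 0.31 with *B. bifidum* and did not pass (0.09 ± 0.10, adjusted p = 0.523). The ferritin genes Fth1 and Ftl1 had saturated or missing spots on slide 2 and were not tested. Of 18 members with a promoter, 5 (27.8%) held the antioxidant response element TGACNNNGC on either strand, against 13.4% of tested genes.

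**Figure D4:**
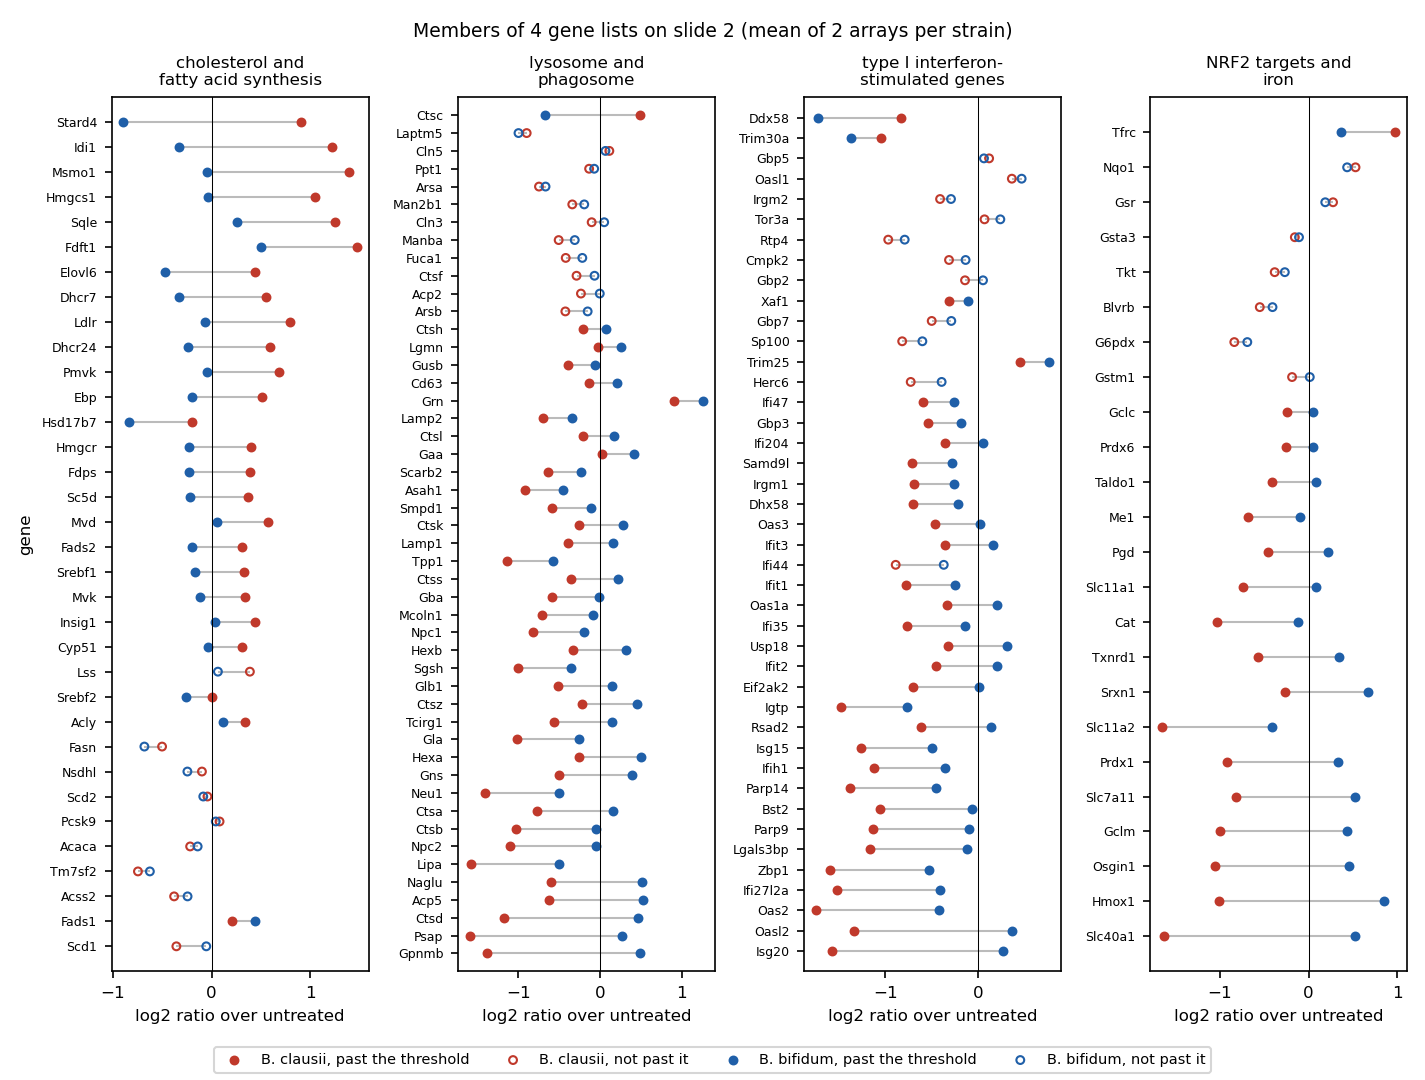
Mean log2 ratio over untreated cells on slide 2 for each tested member of 4 gene lists, red for *B. clausii* and blue for *B. bifidum*, ordered by the difference; filled points passed the test between the bacteria and open points did not. Red lies right of blue for 24 sterol and fatty acid genes that passed and left of blue for 36 lysosomal, 29 interferon-stimulated and 16 NRF2 or iron genes.

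The integrated stress response was mostly higher in *B. clausii*. Of 20 members tested, 11 were higher in *B. clausii*, 4 were lower and 5 did not pass (median 0.29, replicate 3 0.01). Next to Chac1 and Ddit4, Herpud1, which helps remove misfolded proteins from the endoplasmic reticulum, had 1.18 and 1.18 with *B. clausii* and −0.20 and −0.26 with *B. bifidum* (1.41 ± 0.06, adjusted p = 0.000532). It was up with *B. clausii* and slightly down with *B. bifidum*. Ero1a, which oxidises proteins in the same compartment, had −0.86 and −0.95 with *B. clausii* and 0.48 and 0.58 with *B. bifidum* (−1.43 ± 0.07) and was among the 4 lower members with Atf5 (−0.82 ± 0.06), Cebpb (−0.73 ± 0.06) and the cystine transporter gene Slc7a11 (−1.35 ± 0.13), the last 3 named after their values were seen. Of 21 chaperone genes of the endoplasmic reticulum, 10 were higher, 3 were lower and 8 did not pass (median 0.20). Creld2 and Manf, secreted in stress of this compartment, had 0.70 and 0.77 with *B. clausii* and −0.25 and −0.24 with *B. bifidum* (0.98 ± 0.06) and 0.75 ± 0.07, and the co-chaperone gene Dnajc3 had 0.72 ± 0.06. Another Dnajc3 probe gave 0.18, and another probe of Slc7a11 gave −0.32. The disulfide isomerase gene P4hb was lower at −0.91 ± 0.06, being high with *B. bifidum* alone.

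The promoters of Chac1, Herpud1 and Nupr1 show the C/EBP-ATF response element, abbreviated CARE, that ATF4 reads in stress response genes. They are from RefSeq (GRCm38.p6), 120 bases each on the strand of the gene, with capitals on TGATGNAA in either orientation. They are Chac1 chr2:119351029-119351148, plus strand, which starts 213 bases before the start site; Herpud1 chr8:94386309-94386428, plus strand; and Nupr1 chr7:126625471-126625590, minus strand.
Chac1: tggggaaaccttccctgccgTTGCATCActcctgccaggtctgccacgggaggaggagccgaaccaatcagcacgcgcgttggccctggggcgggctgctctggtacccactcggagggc
Herpud1: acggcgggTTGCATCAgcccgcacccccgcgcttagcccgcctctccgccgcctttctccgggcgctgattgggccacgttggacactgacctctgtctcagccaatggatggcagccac
Nupr1: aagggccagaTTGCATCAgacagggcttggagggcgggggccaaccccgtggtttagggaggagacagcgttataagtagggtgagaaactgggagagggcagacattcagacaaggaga
Nupr1, a stress-induced chromatin protein, had 0.91 and 1.02 with *B. clausii* and −0.27 and −0.34 with *B. bifidum* (1.27 ± 0.07). Of 20 members tested, 19 had a promoter in the table and 6 of them (31.6%) held the motif in the 250 bases before the start. The share was 3.91% of all genes with a promoter in the table and 2.84% of the tested ones. The 6 were not alike in direction, since Slc7a11, which holds it, was lower in *B. clausii* and Vldlr did not pass (−0.25 ± 0.10, adjusted p = 0.131).

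Genes of amino acid supply, many of them also under ATF4, differed in both directions. Of 31 members tested, 8 were higher in *B. clausii*, 5 were lower and 18 did not pass (median 0.03, and −0.04 with either the processed signals or the deposited table). Over all genes 16.3% were higher and 15.9% lower. The transporter gene Slc7a5 had 1.096 and 1.17 with *B. clausii* and 0.39 and 0.26 with *B. bifidum* (0.81 ± 0.07, adjusted p = 0.00162), and the serine and one-carbon genes Mthfd2, Psph and Shmt2 had 0.62 ± 0.07, 0.61 ± 0.06 and 0.56 ± 0.06. All 4 had ratios above 0 with both bacteria and higher ones with *B. clausii*. Cytosolic and mitochondrial heat shock genes were divided. Of 21 tested, 5 were higher, 4 were lower and 12 did not pass, against the same shares of all genes. The constitutive chaperone genes Hspa9 and Hspa8 had −0.62 ± 0.08 and −0.60 ± 0.07, and Dnajb4 and the mitochondrial co-chaperonin gene Hspe1 had 0.55 ± 0.09 and 0.55 ± 0.09.

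Genes that mark macrophages were lower in *B. clausii*, without exception among those that passed. Of 25 members tested, 0 were higher in *B. clausii*, 18 were lower and 7 did not pass (median −0.46, replicate 3 −0.06). Mpeg1, which phagocytes use to perforate bacteria, had −1.26 and −1.24 with *B. clausii* and 0.04 and 0.01 with *B. bifidum* (−1.28 ± 0.06, adjusted p = 0.000603), with another probe at −0.40. Sirpa, the inhibitory receptor for CD47, had −1.12 and −1.14 with *B. clausii* and 0.06 and 0.07 with *B. bifidum* (−1.20 ± 0.06), with another probe at −0.27. Both were close to untreated cells with *B. bifidum* and low with *B. clausii*. Lyz1, described above, was also low with *B. clausii* but slightly above untreated cells with *B. bifidum* (mean 0.21). Other members did not share this pattern. Cybb, Tyrobp and Lyz2 also fell with *B. bifidum* (means −1.17, −0.66 and −0.62) and had lower ratios still with *B. clausii* (−1.50, −1.20 and −1.64). For Lyz2 most of that difference lay in the Cy3 channel of untreated cells (0.78) and less in Cy5 (−0.24). Cebpb rose with both, to 0.98 with *B. bifidum* and 0.25 with *B. clausii*. Among uptake receptors 2 of 20 were higher, 12 were lower and 6 did not pass (median −0.43). The lectin receptor gene Clec5a had −0.91 and −0.87 with *B. clausii* and 0.07 and 0.13 with *B. bifidum* (−0.99 ± 0.06), the integrin gene Itgb2 −0.71 and −0.71 with *B. clausii* and 0.27 and 0.26 with *B. bifidum* (−0.98 ± 0.06), and the Fc receptor gene Fcgr4 and the scavenger receptor gene Cd36 −0.95 ± 0.09 and −0.74 ± 0.07. RAW 264.7 cells can become osteoclasts, and of 15 osteoclast genes 1 was higher, 9 were lower and 5 did not pass (median −0.40), among them Ostm1 (−0.76 ± 0.07), Tcirg1 (−0.72 ± 0.07) and Src (−0.61 ± 0.08).

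Immediate early genes were mostly higher in *B. clausii*. Of 25 members tested, 14 were higher in *B. clausii*, 1 was lower and 10 did not pass (median 0.36, replicate 3 −0.05). Egr2, a zinc finger factor, had 0.76 and 0.78 with *B. clausii* and −0.47 and −0.28 with *B. bifidum* (1.14 ± 0.08, adjusted p = 0.00107), and Zfp36, which destabilises cytokine RNA, had 0.57 and 0.52 with *B. clausii* and −0.59 and −0.52 with *B. bifidum* (1.101 ± 0.06). Both were up with *B. clausii* and down with *B. bifidum*, as was Klf2, at 0.31 and 0.42 with *B. clausii* and −0.96 and −1.01 with *B. bifidum* (1.35 ± 0.07), although another Klf2 probe gave −0.25. Fos, named after its value was seen, was the lower member, at −1.31 and −1.32 with *B. clausii* and −0.78 and −0.76 with *B. bifidum* (−0.54 ± 0.06). Of 18 genes that restrain MAP kinase or G protein signals, 8 were higher, 3 were lower and 7 did not pass (median 0.17). The phosphatase genes Dusp4 and Dusp6 stood on opposite sides, at 0.84 and 0.89 with *B. clausii* and 0.02 and 0.00 with *B. bifidum* (0.85 ± 0.06) for the first and −1.48 and −1.47 with *B. clausii* and −0.37 and −0.42 with *B. bifidum* (−1.08 ± 0.06) for the other. Rgs1 had 0.66 ± 0.07 and Rgs2 −0.89 ± 0.06, though another Rgs2 probe gave 0.01.

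Urokinase and its receptor stood on opposite sides. The receptor gene Plaur had 0.69 and 0.63 with *B. clausii* and 0.01 and 0.13 with *B. bifidum* (0.59 ± 0.07, adjusted p = 0.00321) and was higher in *B. clausii*, while Plau was lower. Mmp9, a gelatinase, was not well above background in Cy5 on either *B. clausii* array, and that signal was at least 1.25-fold lower (adjusted p = 0.0304 for the ratio). Mmp9 was well above background on 1 of the 2 *B. bifidum* arrays. Its call fell short of the threshold in 12 of 22 alternative settings. In this list of proteases and inhibitors 2 of 11 were higher, 3 were lower and 6 did not pass, against 16.3% higher and 15.9% lower of all genes. Its median was 0.06, but −0.32 from the scanner's processed signals. Among 22 anti-inflammatory and repair genes 5 were higher, 4 were lower and 13 did not pass (median 0.06), not far from the shares of all genes. The growth factor gene Pdgfb had 0.94 and 1.01 with *B. clausii* and −0.02 and 0.01 with *B. bifidum* (0.98 ± 0.06) and the factor gene Nfil3 0.54 ± 0.06, while the cytokine receptor genes Il4ra and Il10ra had −0.85 ± 0.10 and −0.62 ± 0.07.

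Respiratory chain and cell cycle genes that passed were mostly higher in *B. clausii*, and glycolysis genes were divided. Of 49 members tested, 19 were higher in *B. clausii*, 2 were lower and 28 did not pass in the respiratory chain and ATP synthase list (median 0.14, and 0.52 with median centring). Ndufa4 had 0.63 and 0.64 with *B. clausii* and −0.14 and −0.17 with *B. bifidum* (0.79 ± 0.06, adjusted p = 0.0011), the ATP synthase gene Atp5g3 0.69 ± 0.06, and the complex I genes Ndufv2 and Ndufa5 0.61 ± 0.06 and 0.59 ± 0.06. Of 30 glycolysis and hypoxia genes 7 were higher, 13 were lower and 10 did not pass (median −0.16, and 0.09 with median centring). The hypoxia gene Ankrd37 and the hexokinase gene Hk2 had 1.28 and 1.37 with *B. clausii* and 0.45 and 0.40 with *B. bifidum* (0.90 ± 0.06) and 0.79 ± 0.07, and the aldolase gene Aldoc had −0.84 and −0.82 with *B. clausii* and 0.22 and 0.26 with *B. bifidum* (−1.07 ± 0.06), so members of the pathway did not move together. In the cell cycle list 19 of 50 were higher, 2 were lower and 29 did not pass (median 0.15). Tyms, which makes thymidylate, had 0.69 and 0.69 with *B. clausii* and −0.33 and −0.34 with *B. bifidum* (1.02 ± 0.06), E2f2 0.74 ± 0.06 and the replicative helicase gene Mcm6 0.70 ± 0.06, while Cdt1 was lower as given above.

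RNA processing, secretion, ribosomal and histone genes gave mixed counts. Of 47 members tested, 19 were higher in *B. clausii*, 8 were lower and 20 did not pass in the RNA processing list (median 0.16). Neat1, the scaffold RNA of paraspeckles, had 1.94 and 1.91 with *B. clausii* and 0.78 and 0.81 with *B. bifidum* (1.13 ± 0.06, adjusted p = 0.000725), up with both bacteria. Hnrnpd and Pnn had 0.93 ± 0.06 and 0.81 ± 0.06, and the splicing factor gene Srsf5 −1.002 and −1.05 with *B. clausii* and −0.01 and −0.11 with *B. bifidum* (−0.97 ± 0.07). Among 45 Golgi and secretory genes 6 were higher, 13 were lower and 26 did not pass (median −0.10, and 0.07 with median centring). The Golgi tether gene Golgb1 had −0.55 and −0.52 with *B. clausii* and −1.80 and −1.36 with *B. bifidum* (1.05 ± 0.15) and Golga4 0.58 ± 0.06; their lowest probes gave −0.40 and −0.48, and the mean of the Golga4 probes was −0.12. The membrane fusion genes Ykt6 and Stx5a had −0.80 ± 0.07 and −0.60 ± 0.06, with another Ykt6 probe at 0.42. Of 41 ribosomal protein genes 3 were higher, 5 were lower and 33 did not pass (median −0.12, and 0.26 with median centring). These shares were below the 16.3% higher and 15.9% lower of all genes. Rpl13a had −0.72 ± 0.09 and Rps19 0.43 ± 0.06, and Rpl3 (−0.39 ± 0.06) changed sign with median centring, to 0.06. Of 24 histone genes 3 were higher, 7 were lower and 14 did not pass, with the lowest differences in H1f2 (−1.11 ± 0.06), H2bc14 (−0.92 ± 0.06), H2bc12 (−0.87 ± 0.07) and H2bc4 (−0.66 ± 0.06). Histone genes of the same family, such as the H2bc genes, are close copies whose probes may cross-react.

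**Figure D5:**
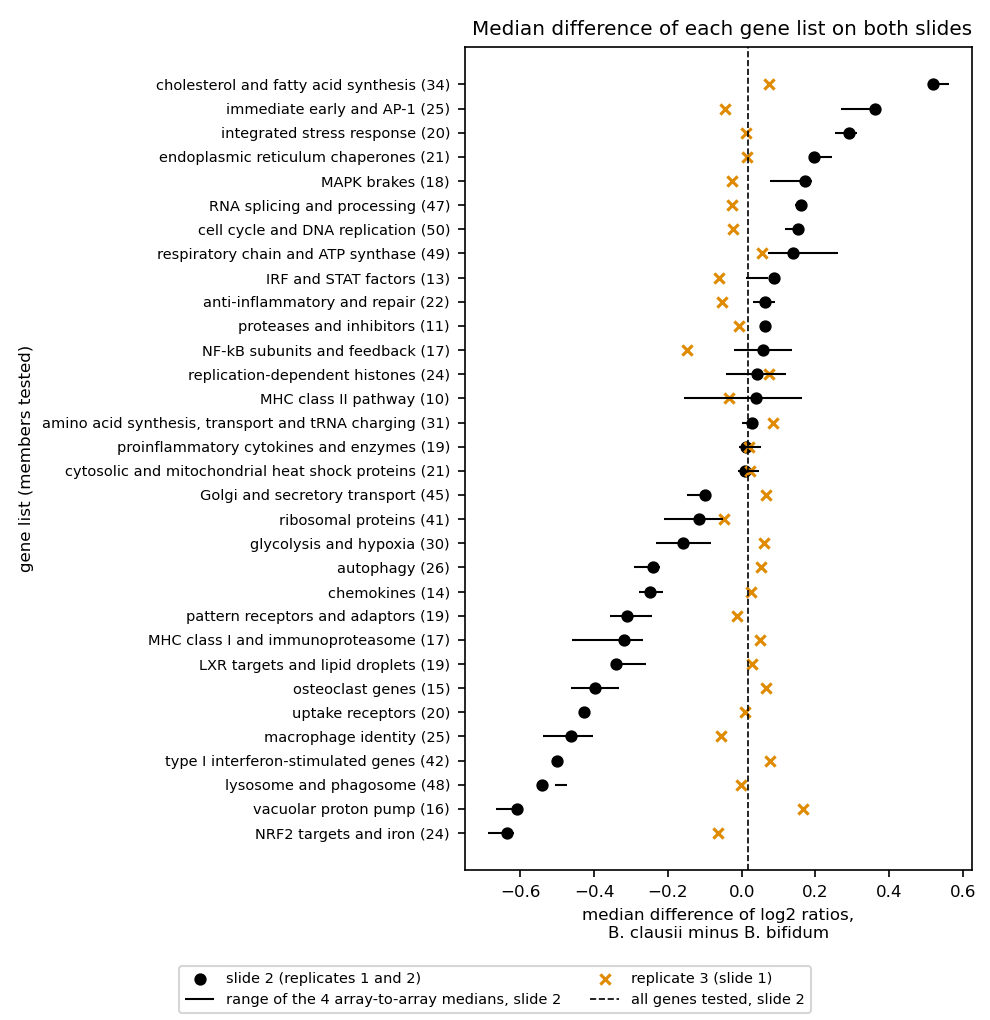
Median difference of log2 ratios, *B. clausii* minus *B. bifidum*, for each gene list with its number of members tested; black points are slide 2, black lines span the medians of the 4 pairings of 1 *B. clausii* array with 1 *B. bifidum* array, and orange crosses are replicate 3. Slide 2 medians run from −0.63 for NRF2 targets and iron to 0.52 for cholesterol and fatty acid synthesis, while replicate 3 medians stay between −0.15 and 0.17.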

How the data were processed

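Per the file headers, Agilent Feature Extraction 10.7.3.1 made the deposited scanner files, while the submitters' processing notes name 10.5.1.1. They hold linear intensity of each spot and its background. They also hold, per the file headers, processed intensity and a log10 ratio of Cy5 over Cy3, which the authors' deposited value table repeats with medians of 0.

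Median intensity was corrected with normexp (offset 50) and loess within arrays in limma 3.58.1 (R 4.3.3). Outlier and saturated spots were removed and spots of a probe averaged. Of 41174 probes, 26802 stood well above background in either channel on 2 or more of the 6 arrays, and 20617 of these had a gene through their accession in a RefSeq table (GRCm38.p6, used for names; the files name another build). Each of 14543 genes was represented by its brightest probe with values on all 4 arrays of slide 2. The 4 arrays were fitted with lmFit and eBayes (2 residual and 3.34 prior degrees of freedom), with Benjamini-Hochberg adjustment and a threshold of 0.05. Differences are given ± SE with n = 2 arrays per bacterium. Cy5 and Cy3 parts came from the same ratios after Aquantile. Lists were described by counts and medians alone.

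Same-numbered arrays of the 2 bacteria deviated together (r = 0.42, 0.30 and 0.46 over 3 pairs), but numbers share a slide, and within slide 2 the correlation was 0.08.

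Named were the 10 largest differences per direction, the 10 per direction with the largest smaller value of both slides, up to 4 members per list and 12 inflammatory genes, without clones and predicted genes; some genes the rule names are not reported here. The members, lists and rules were chosen with earlier results of these data known. Alternatives were other background correction, normalization, filters, probe rules, blocks, tests and each array left out; 3 were added after seeing the data.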

Additional observations from a re-analysis of the deposited data

How the results depend on the processing

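Under the limma alternatives on slide 2 the call count of 4680 (2372 higher, 2308 lower) became 990 (348, 642) with the scanner's processed signals, 1006 (356, 650) with the deposited table, 362 (148, 214) against a minimum difference of 0.5, and 0 (0, 0) with median centring (758 at an unadjusted p under 0.05) or Cy5 alone (2650). The share with the same sign on replicate 3, 50.2%, became 47.6% and 45.4% with the processed signals and the deposited table. Leaving out each array of slide 2 gave 2712 to 4067 calls, 1371 to 2083 higher and 1320 to 1984 lower, with the lone array assumed to vary like the others. Over 6 arrays, calls numbered 0 (0, 0) with the replicate block (2417 without adjustment), 6 (4, 2) with the slide as a block and 1 (0, 1) without a block; over 8 arrays with the slide as a block they numbered 320 (201, 119). On the 4 arrays the replicate block gave 4621, and other background, normalization, filter and probe settings 3827 to 5549; leaving out disagreeing probes, chosen after seeing the data, gave 3207. Of the genes named by rule and reported, 112 kept their direction and side of the threshold and 50 fell short of it with the processed signals, 114 and 48 with the deposited table, 84 and 78 against a minimum difference, and 12 and 150 over 6 arrays with the slide as a block.

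Signs of called genes and of medians beyond their spread between arrays reversed as follows, and the cause was not tested. With the processed signals and the deposited table the medians became −0.011 and −0.010 for IRF and STAT factors, −0.0442 in both for amino acid genes, and −0.32 and −0.21 for proteases. The median of all genes, 0.02, became −0.0058 with the processed signals and −0.021 with Cy5 alone. With median centring glycolysis became 0.087, ribosomal proteins 0.26, Golgi 0.073 and Rpl3 0.063. Chemokines became 0.043 without the filter, and the mean of probes turned Ubap2l to −0.014 and Golga4 to −0.12. Medians closer to 0 also changed sign, with lowest values of −0.09 for NF-kB, −0.06 for cytokines, −0.02 for heat shock proteins, −0.10 for histones and −0.29 for MHC class II. Over the settings run, the median was −0.56 to −0.28 for lysosomal, −0.71 to −0.28 for interferon-stimulated, −0.75 to −0.40 for NRF2 and iron, 0.37 to 0.64 for sterol and fatty acid, 0.19 to 0.41 for stress response and 0.10 to 0.52 for respiratory chain genes.

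A limit is that 2 arrays per bacterium from 1 slide carry the tests, and the remaining pair did not show the same differences. Signal over background limits dim genes: Il1b, Il6, Arg1, Mmp9, Abca1 and Tmem154 were below it in Cy5 on some or all arrays. Genes saturated on slide 2 were not measured there.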
